A study of Mus musculus with 12 samples.

Results

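The transcripts examined were those of 9 genes of metaphase II arrest and the Greatwall pathway in the mouse oocyte, chosen by name and read from all 12 libraries of the table. Mos, Map2k1, Mapk3 and Rps6ka2 form a kinase cascade, Fbxo43 encodes EMI2 and Plk1 a kinase that acts on it, and Mastl, Arpp19 and Ensa make up the Greatwall branch. All 9 were among the 23230 genes listed, and 8 of them were also among the 11502 genes that reached 1 FPKM (fragments per kilobase of transcript, relative to all mapped fragments) in at least 1 library. Rps6ka2 stayed under that level in every library and was not tested.

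WT and Zar1/2-null oocytes, on a mixed C57BL6 and ICR background, were compared at 3 stages by Smart-seq2, a method that copies polyadenylated RNA of a few cells into cDNA. Growing oocytes came from 13.5-day-old females by the labels, and the study's methods give a younger age. Oocytes at the germinal vesicle (GV) stage, fully grown and still in prophase, came from 21-day-old females 44 h after PMSG, and ovulated oocytes (labelled MII) were collected 16 h after hCG. The null mice carry CRISPR deletions in both Zar1 and Zar2, the genes of a pair of oocyte proteins that bind RNA, and the control oocytes carry neither. The study describes many ovulated null oocytes as still in meiosis I, so the label MII gives the time of collection for them rather than a shared phase. Each of the 6 groups had 2 libraries of 10 oocytes, and no label says that the libraries came from separate animals, so p-values measure only the spread between these libraries, which may be technical.

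MOS is made in maturing oocytes and starts a cascade in which MOS activates the MEK kinase, MEK activates ERK and ERK activates the RSK kinases. The cascade and EMI2 together keep the egg at metaphase II, EMI2 by blocking the anaphase-promoting complex (APC/C), the ubiquitin ligase that destroys cyclin B. Greatwall works beside them, since it phosphorylates ARPP19 and ENSA, which then inhibit the phosphatase PP2A-B55 that would undo the work of CDK1. Many oocyte mRNAs, Mos among them, are stored untranslated until maturation, and cytoplasmic polyadenylation elements (CPEs) in their 3′ UTRs, next to the polyadenylation signal, take part in that control.

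Arpp19 and Ensa encode the paired Greatwall substrates, and their sequences are shown because Arpp19 rose relative to Ensa over maturation in WT libraries. In null libraries that ratio overlapped between GV and ovulated oocytes. The WT ratio rests on low Ensa values in ovulated oocytes (0.771 and 1.11 FPKM). The 30 coding bases around the serine that Greatwall phosphorylates (its codon in capitals) were read from the annotation of the mm9 build. The Arpp19 stretch holds residue 62 of the annotated protein at chr9:74904445-74904474, plus strand, and the Ensa stretch residue 67 at chr3:95432466-95432495, plus strand, both in coding exons.
Arpp19: aagtattttgatTCTggggactacaacatg
Ensa: aagtactttgacTCAggagactacaacatg
Here 26 of 30 bases were the same, and over the aligned coding sequences 251 of 339 bases (74.0%) were. The longest run of bases shared by the transcripts was 20, shorter than the reads after trimming to 50 bp.

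Stretches of 4 members' 3′ UTRs are shown for the CPE letters TTTTAT and TTTTAAT or, in Mos, the polyadenylation signal AATAAA (capitals, transcript strand). The letters stand 22 bases from the annotated end in Mos and 15 in Arpp19, but 103 in Fbxo43 and 472 in Mastl, neither of which had a CPE spelling in its last 100 bases. They lie at chr4:3797808-3797837 (minus strand, Mos), chr15:36079900-36079929 (minus strand, Fbxo43), chr2:22971580-22971609 (minus strand, Mastl) and chr9:74908091-74908120 (plus strand, Arpp19) of mm9.
Mos: atatttttaggaAATAAAgttaccacgaac
Fbxo43: gtatatatgtgtTTTTATactatacacaca
Mastl: cccaaattatttTTTTAATaagttgcctcg
Arpp19: atggatctacctaatTTTTATtgattttaa
Searched on the transcript strand only, the annotated 3′ UTR of Fbxo43 held 6 copies of TTTTAT, that of Mastl 2 copies of TTTTAT and 5 of TTTTAAT, and that of Arpp19 2 and 1. In the last 100 bases, TTTTAT stood in Arpp19 (15 bases from the end) and Rps6ka2 (13 bases from the end), and 20.1% of the 10102 tested genes with such a window held TTTTAT or TTTTAAT there. The 126-base 3′ UTR of Mos had AATAAA 22 bases from its end and neither CPE spelling. Neither Mapk3 (612 bases) nor Ensa (1782 bases) had either CPE spelling in its annotated 3′ UTR, nor AATAAA or its common variant (spelled ATTAAA), whereas 80.9% of the tested genes had 1 of these signals in the last 100 bases. These are matches of letters in 1 annotated transcript of each gene.

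The authors multiplied each library by a factor from its ERCC spike-in, a synthetic RNA mix of which every lysate received the same quantity. The values thus estimate polyadenylated transcript per oocyte rather than a share of the RNA. A change in the length of the poly(A) tail could also alter a value, and this was not tested. The study reports that tails of a few maternal mRNAs lengthened over WT maturation and failed to do so in the null. The recovered factors were 0.225 and 0.228 in WT MII and 0.283 and 0.252 in Zar1/2-null MII libraries, and 0.533 to 1 in the others. Both WT growing libraries had a factor of 1, although the study lists different ERCC shares for them. The values therefore do not carry the spike-in difference between these reference libraries. Zar1l, under which Zar2 is listed, had 13.2 to 20.9 FPKM in the null growing and GV libraries and 504 to 644 FPKM in the WT ones, and at MII 1.01 to 1.36 FPKM against 3.13 to 4.72 FPKM. Zar1 had 407 and 460 FPKM in null growing and 136 and 203 FPKM in null GV libraries, against 603 and 725, then 439 and 423 FPKM in WT, and at MII it was higher in the null (190 and 194 against 83.6 and 72.4 FPKM). A value for the whole gene does not show whether reads fall in the deleted part, so for Zar1 it gave no check of the labels. All 9 oocyte markers were found, with summed levels of 2284 FPKM or more. Of 10 granulosa and cumulus markers, 4 reached 1 FPKM, led by Cyp19a1 at 19.0 FPKM, with sums of 22.8 to 26.2 FPKM in WT growing, 5.85 to 10.4 FPKM in null growing and 4.21 to 15.2 FPKM in the other groups. Amh was listed at 0 in all but 1 library and Foxl2 reached at most 0.0954 FPKM. Of 4 immune markers 1 reached 1 FPKM (Cd68, 3.07 FPKM), and of 4 markers of oviduct epithelium none did. The part of these cells in the results was not tested.

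Mos had the highest level of the 9 members in all 6 groups (group means of FPKM, a measure per length), from 741 FPKM in Zar1/2-null growing to 196 FPKM in WT MII oocytes. It exceeded 98.3% or more of the 11502 tested genes in each group. Mapk3 came next in every group but WT MII, where it was seventh. Ensa was eighth and Rps6ka2 last throughout. Between them, Plk1 and Map2k1 could not be ordered in growing oocytes of either genotype or in null GV oocytes, where their libraries overlapped, and in WT MII oocytes Fbxo43, Plk1 and Arpp19 (15.3, 14.9 and 14.3 FPKM) overlapped from one to the next.

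**Figure D1:**
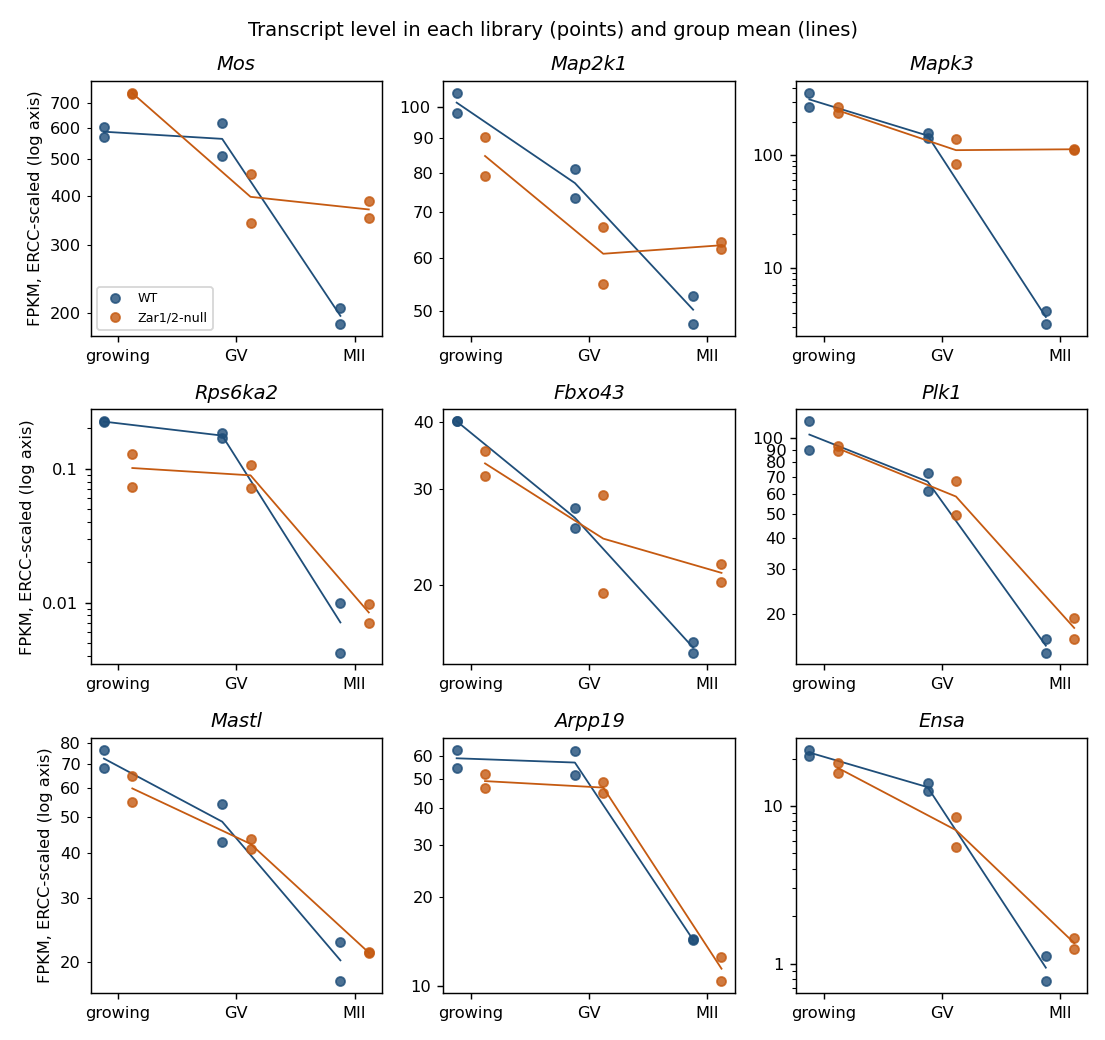
Level of each of the 9 members by stage, in ERCC-scaled FPKM on a log axis whose range differs between panels. Points are single libraries (2 a group) and lines join group means, WT in blue and Zar1/2-null in orange. Mapk3 in WT MII oocytes (3.16 and 4.19 FPKM) stands far below its other libraries, all at 83.3 FPKM or more.

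Differences were tested with limma on log2(FPKM + 1), fitted to all 11502 genes and 12 libraries, with Benjamini-Hochberg adjustment, and a gene was called at an adjusted p under 0.05. On this scale the change of a low gene is understated. In growing oocytes, limma called 0 of 8 members higher (background 10.6% of genes) and 0 lower (24.4%). In GV oocytes it called 0 higher (2.83%) and 2 lower in the null (40.6%), namely Ensa and Mos, which became 1 without WT replicate 1 or null replicate 1 and 5 without null replicate 2. In ovulated oocytes it called 2 higher in the null (21.5%), Mapk3 and Mos, and 0 lower (10.3%). No member of the growing comparison had an unadjusted p under 0.05. The shares of members called in GV oocytes thus lay below the background, and in ovulated oocytes 2 of 8 stood beside 21.5%.

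The median log2 difference of the members was -0.26 in growing, -0.31 in GV and 0.30 in ovulated oocytes. For all tested genes the medians were -0.16, -0.38 and 0.06. With the ERCC factor divided out, those of all genes became 0.08, -0.03 and -0.01. A genotype difference at the GV stage is therefore read below against a shift of all genes. Shares of all genes called are given on the ERCC scale only. Counts called with the factor divided out or after median scaling therefore have no background beside them.

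**Figure D2:**
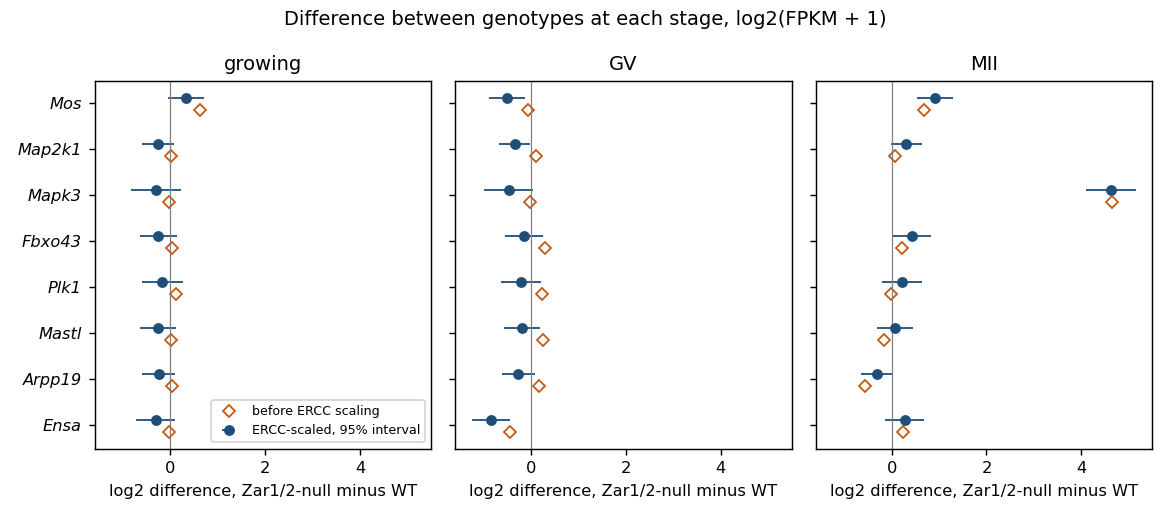
Zar1/2-null minus WT difference of the 8 tested members on the log2(FPKM + 1) scale at each stage (2 libraries a group). Filled circles show ERCC-scaled values with the 95% interval of limma, open diamonds the values with the ERCC factor divided out. Mapk3 at MII (4.62 and 4.64) stands apart from the other points on both scales.

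Mapk3, which encodes ERK1, showed the widest gap between genotypes of the 8 tested members. Its levels in ovulated oocytes were 3.16 and 4.19 FPKM in the WT libraries and 112 and 115 FPKM in the Zar1/2-null libraries. The genotypes did not overlap, as in 43.5% of all genes in this direction, and the null mean was 30.9-fold higher (3.67 ± 0.730 against 113 ± 2.02 FPKM, SD, n = 2 each). A mean more than 3-fold higher was found in 7.49% of all genes. The log2 difference was 4.62 (standard error 0.24, adjusted p = 5.32e-08, limma with Benjamini-Hochberg adjustment). It was 4.64 with the ERCC factor divided out and 4.60 after scaling to the median gene, and from 4.46 to 4.78 with any 1 of the 4 libraries left out. With 10 oocytes pooled in each library, a middle level in every oocyte and a mixture of oocytes with high and low levels cannot be told apart.

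Before ovulation, Mapk3 gave no call between genotypes. GV oocytes had 157 and 143 FPKM in WT and 83.3 and 140 FPKM in null libraries, so that 1 null library lay close to the WT ones. The log2 difference at this stage was -0.47 (95% interval -0.99 to 0.05, adjusted p = 0.126 by limma). In growing oocytes the libraries had 267 and 362 FPKM in WT and 267 and 236 FPKM in null oocytes, with a log2 difference of -0.31 (95% interval -0.83 to 0.21, adjusted p = 0.339 by limma).

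Mos, the kinase at the head of the cascade, was also higher in null ovulated oocytes. WT libraries had 206 and 187 FPKM and null libraries 389 and 351 FPKM, a difference of 1.89-fold between means (196 ± 13.8 and 370 ± 26.4 FPKM, SD, n = 2 each). The log2 difference was 0.91 (standard error 0.18, adjusted p = 0.00194, limma with Benjamini-Hochberg adjustment). It remained called with the ERCC factor divided out (0.67), after median scaling (0.69) and without any 1 library (0.84 to 0.98).

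At the GV stage the order of the genotypes was the opposite, with 619 and 509 FPKM of Mos in WT and 341 and 457 FPKM in null libraries. The log2 difference was -0.51 (standard error 0.18, adjusted p = 0.0372, limma with Benjamini-Hochberg adjustment), against a median of -0.38 for all genes. The call did not hold with the factor divided out (-0.05) or after median scaling, where the sign turned (0.03). It was also lost in 2 of the 4 fits without 1 library, without null replicate 1 (-0.30, adjusted p = 0.246) and without WT replicate 1 (-0.36, adjusted p = 0.221, limma with Benjamini-Hochberg adjustment). In growing oocytes Mos had 570 and 607 FPKM in WT and 743 and 739 FPKM in null libraries, which did not overlap (background 22.4%). There the log2 difference of 0.33 was not called (95% interval -0.05 to 0.72, adjusted p = 0.166 by limma), and on both other scales it was 0.62 and was called.

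Map2k1 encodes MEK1, the kinase that MOS activates. It had 98.1 and 105 FPKM in WT growing and 90.4 and 79.1 FPKM in null growing libraries, 81.1 and 73.5 FPKM against 54.9 and 66.7 FPKM in GV oocytes, and 52.7 and 47.8 FPKM against 61.8 and 63.3 FPKM in ovulated oocytes. Null libraries lay below WT libraries before ovulation and above them after it (backgrounds for this order 47.4%, 63.6% and 43.5%). None of the 3 differences was called, and their 95% intervals reached from -0.60 to 0.07, from -0.68 to -0.01 and from -0.02 to 0.65 on the log2 scale. Map2k1 and its relative Map2k2 share a run of 56 bases, longer than a trimmed read, so a few reads could come from either gene.

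Rps6ka2, which encodes the RSK3 kinase, had 0.222 and 0.226 FPKM in WT growing libraries, 0.0728 and 0.129 FPKM in null growing libraries, 0.184 and 0.169 FPKM in WT GV and 0.107 and 0.0713 FPKM in null GV libraries. In ovulated oocytes it had at most 0.0100 FPKM in either genotype. The other RSK genes listed were higher, Rps6ka3 at 1.04 to 7.69 FPKM and Rps6ka1 at 0.552 to 5.27 FPKM. Neither gave a call between genotypes on the ERCC scale, and Rps6ka1 was called higher in null growing oocytes after median scaling (log2 difference 0.58, adjusted p = 0.0383, limma with Benjamini-Hochberg adjustment).

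Of 9 other genes of the cascade and its control, 8 were tested. In growing oocytes 1 was higher in the null (background 10.6%) and 0 lower (24.4%). It was Braf, with 0.495 FPKM in both WT libraries and 0.987 and 1.02 FPKM in the null ones. Braf reached 1 FPKM only in null growing replicate 2, so the group called higher also admitted it to the test. In GV oocytes 0 were higher (2.83%) and 0 lower (40.6%), and in ovulated oocytes 3 were higher (21.5%) and 0 lower (10.3%). The lowest adjusted p of the 8 in GV oocytes was 0.0643 by limma, for Cdk2ap2, at a log2 difference of -0.38. The 3 were Cpeb1, the protein that binds CPEs (9.16 and 10.6 FPKM in WT, 29.3 and 24.8 FPKM in null), Map2k2, the gene of MEK2 (0.878 and 1.29 against 3.16 and 3.18 FPKM), and Mapk1ip1 (1.65 and 2.19 against 5.22 and 2.78 FPKM), whose protein binds MAPK at the spindle. Their log2 differences were 1.37, 1.01 and 0.74, and all 3 were called on each of the 3 scales. Mapk1ip1 lost its call in 3 of 4 fits without 1 library, down to 0.38 without null replicate 1 (adjusted p = 0.333 by limma). The median of the 8 in ovulated oocytes was 0.37 on the log2 scale, against 0.06 for all genes.

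Fbxo43 encodes EMI2, the inhibitor of the APC/C that holds metaphase II. Its levels were 40.1 FPKM in both WT growing libraries and 35.3 and 31.7 FPKM in the null ones, 27.8 and 25.4 FPKM against 19.3 and 29.4 FPKM in GV oocytes, and 14.99 and 15.7 FPKM against 20.2 and 21.9 FPKM in ovulated oocytes. Null GV libraries stood on either side of the WT ones. In ovulated oocytes both null libraries were higher (background 43.5%), by 1.37-fold in the mean. The difference was not called (log2 0.43, 95% interval 0.04 to 0.83, adjusted p = 0.0926, limma with Benjamini-Hochberg adjustment).

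Plk1 encodes the polo-like kinase that marks EMI2 for destruction when the egg is activated. It had 89.7 and 117 FPKM in WT growing and 89.2 and 92.9 FPKM in null growing libraries, 72.6 and 61.7 FPKM against 49.6 and 67.5 FPKM in GV oocytes, and 14.0 and 15.9 FPKM against 15.9 and 19.2 FPKM in ovulated oocytes. No genotype difference was called. The 95% intervals of the log2 differences were -0.59 to 0.26, -0.63 to 0.22 and -0.21 to 0.64, so a change of the size seen for Mos in ovulated oocytes lay outside each of them.

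Of 17 other genes of EMI2 regulation and the APC/C, 16 were tested (Bora was not in the table). In growing oocytes 2 were higher in the null (Fzr1 and Ppp2r5e, background 10.6%) and 1 lower (Fbxo5, background 24.4%). Without 1 library Fzr1 lost this call in 2 of 4 fits (adjusted p of up to 0.0954 by limma) and Ppp2r5e in 1 (0.0531), and Ppp3r1 was also called higher on both other scales (adjusted p = 0.0129 and 0.0147 by limma). In GV oocytes 0 were higher (background 2.83%) and 6 lower (40.6%), namely Fbxo5, Btrc, Fbxw11, Ppp3ca, Ppp2r5c and Ppp2r5e. Of these, Ppp3ca and Fbxw11 were still called with the factor divided out, and Ppp3ca also after median scaling. Those 2 were also called without any 1 library, while the other 4 lost the call in 2 or 3 of 4 such fits. In ovulated oocytes 6 were higher (background 21.5%) and 2 lower (10.3%), with a median of 0.36 on the log2 scale for the 16. On both other scales 5 were higher and 4 lower, and the share of all genes called there is not given. Fbxo5 (-0.57 with the factor divided out and -0.54 after median scaling) and Ppp2r5e (-0.74 and -0.66) were then called lower.

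The APC/C activators Cdc20 and Fzr1 (CDH1) were among the 6 that were higher. Cdc20 had 28.5 and 31.7 FPKM in WT and 65.4 and 60.8 FPKM in null ovulated oocytes (log2 difference 1.05, adjusted p = 0.00493, limma with Benjamini-Hochberg adjustment). Fzr1 had 0.694 and 1.17 FPKM in WT and 8.43 and 9.77 FPKM in null ovulated oocytes (log2 difference 2.39, adjusted p = 3.25e-06, limma with Benjamini-Hochberg adjustment). Both remained called on each scale and without any 1 library. The others were Ppp2r5a, Ppp2r5b and Ppp2r5d, which encode B56 subunits of PP2A, and Camk2g, a subunit of the CaMKII kinase that acts on EMI2 at activation (log2 differences of 1.00, 0.49, 1.03 and 0.53). Ppp2r5b stayed under 1 FPKM in ovulated oocytes of both genotypes (0.0699 and 0.145 FPKM in WT, 0.427 and 0.684 FPKM in null). Ppp2r5a had 1.18 and 1.25 FPKM in WT and 3.11 and 3.76 FPKM in null libraries. Camk2g lost its call on both other scales and in 3 of 4 fits without 1 library, and Ppp2r5b lost it without WT replicate 1 or null replicate 2.

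The 2 that were lower encode calcineurin subunits, the phosphatase that calcium also switches on at activation. Ppp3ca had 1.99 and 1.25 FPKM in WT and 0.409 and 0.639 FPKM in null ovulated oocytes, and Ppp3r1 14.2 and 12.5 against 8.15 and 7.97 FPKM (log2 differences of -0.77 and -0.66). Both were called on each scale. Without WT replicate 1 the adjusted p by limma was 0.0839 for Ppp3ca and 0.0518 for Ppp3r1, and without null replicate 1 it was 0.0709 for Ppp3ca. Fbxo5, the gene of EMI1, an inhibitor of the APC/C related to EMI2, was lower in null growing oocytes, with 98.4 and 80.3 FPKM against 162 and 149 FPKM in WT (log2 difference -0.80, adjusted p = 0.0188, limma with Benjamini-Hochberg adjustment). The adjusted p of this last difference was 0.0549 by limma with the factor divided out and reached 0.138 without null replicate 2, and 3 of 4 such fits lost the call.

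Mastl encodes Greatwall, the kinase of the third branch. It had 76.7 and 68.2 FPKM in WT growing and 64.9 and 55.2 FPKM in null growing libraries, 54.4 and 42.9 FPKM against 40.9 and 43.6 FPKM in GV oocytes, and 17.7 and 22.8 FPKM against 21.2 and 21.3 FPKM in ovulated oocytes. The genotypes overlapped in GV and in ovulated oocytes. No difference was called, and the 95% interval in ovulated oocytes was -0.30 to 0.46 on the log2 scale.

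Arpp19 had 63.1 and 54.8 FPKM in WT growing and 52.1 and 46.6 FPKM in null growing libraries, 62.3 and 51.8 FPKM against 48.8 and 45.0 FPKM in GV oocytes, and 14.3 and 14.4 FPKM against 12.5 and 10.4 FPKM in ovulated oocytes. Null libraries lay below WT ones at all 3 stages (backgrounds for this order 47.4%, 63.6% and 27.8%). The log2 difference in ovulated oocytes was -0.31 (95% interval -0.65 to 0.04, adjusted p = 0.171 by limma). It was -0.56 with the ERCC factor divided out and -0.54 after median scaling, and was called on both of those scales (adjusted p = 0.00407 and 0.00596, limma with Benjamini-Hochberg adjustment).

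Ensa, the other Greatwall substrate, was the member with the largest called difference between genotypes at the GV stage. Its levels there were 13.9 and 12.4 FPKM in WT and 5.48 and 8.56 FPKM in null libraries, and the WT mean was 1.87-fold higher (13.2 ± 1.02 against 7.02 ± 2.18 FPKM, SD, n = 2 each). The log2 difference was -0.85 (standard error 0.19, adjusted p = 0.00423, limma with Benjamini-Hochberg adjustment), called in each of the 4 fits without 1 library but not with the factor divided out (-0.45, adjusted p = 0.138 by limma) or after median scaling (-0.35). In growing oocytes the values were 20.9 and 22.8 FPKM in WT and 16.3 and 18.6 FPKM in null libraries, and in ovulated oocytes 0.771 and 1.11 against 1.46 and 1.24 FPKM. Neither was called, and at the ovulated stage all 4 values were near 1 FPKM, where log2(FPKM + 1) compresses a difference.

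Of 12 other genes of PP2A-B55 and the phosphatases around Greatwall, 11 were tested. In growing oocytes 1 was higher in the null (background 10.6%) and 0 lower (24.4%). It was Ppp2cb, a catalytic subunit of PP2A, with 3.48 and 4.94 FPKM against 1.36 and 1.04 FPKM in WT. In GV oocytes 0 were higher (background 2.83%) and 5 lower (40.6%), namely Ppp2ca, Ppp2r1a, Ppp2r1b, Ppp1cb and Ppp1cc. Of these only Ppp2r1b was also called on the 2 other scales. Ppp2ca and Ppp2r1a lost the call in 3 of 4 fits without 1 library. In ovulated oocytes 3 were higher (background 21.5%) and 2 lower (10.3%). On both other scales 2 were higher and 3 lower, and the share of all genes called there is not given. Ppp2ca was then called lower (-0.64 and -0.60, adjusted p = 0.0182 and 0.0175 by limma). The higher ones were Ppp2r2b, which encodes a B55 subunit (0.422 and 0.256 FPKM in WT, 1.75 and 1.16 FPKM in null), Ppp1ca, a catalytic subunit of PP1 (4.53 and 5.86 against 18.4 and 14.6 FPKM), and Ppp2r1a, the main scaffold subunit of PP2A (16.3 and 19.6 against 26.7 and 29.8 FPKM), with log2 differences of 0.87, 1.496 and 0.63. The lower ones were the alternative scaffold Ppp2r1b (0.967 and 1.07 against 0.350 and 0.318 FPKM) and Ppp1cb, another catalytic subunit of PP1 (11.99 and 10.1 against 4.80 and 5.49 FPKM). The scaffold genes Ppp2r1a and Ppp2r1b thus differed in opposite directions, as did the PP1 genes Ppp1ca and Ppp1cb. The call of Ppp2r1a did not hold on either other scale, and leaving out 1 library ended the calls of Ppp2r1b in 4 of 4 fits (adjusted p up to 0.0791 by limma), of Ppp2r1a in 3 (up to 0.173) and of Ppp2r2b in 1 (null replicate 1, 0.0533).

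Maturation was examined by setting ovulated against GV oocytes. In WT, limma called 8 of 8 members lower (background 93.4%) and 0 higher (0.104%) on the ERCC scale, on which the median gene changed by -1.28. With the factor divided out, 2 were lower and 3 higher, and after median scaling 2 were lower and 4 higher, so for most members only the position relative to other genes is free of the scaling. The median gene changed by -0.43 and -0.15 on those scales, and the share of all genes called there is not given. Mapk3 and Ensa were the 2 that were lower on every scale.

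Mapk3 had the deepest fall, from 157 and 143 FPKM in WT GV to 3.16 and 4.19 FPKM in WT MII libraries, or 40.9-fold between means, while a mean more than 10-fold lower was found in 15.7% of all genes. Its log2 change was -5.02 (adjusted p = 3.81e-09, limma with Benjamini-Hochberg adjustment), -3.53 with the factor divided out and -3.13 after median scaling. Ensa followed with -2.87, or 13.2-fold when its MII mean of 0.942 FPKM is set to 1 FPKM, and with -1.83 and -1.39 on the other scales. Plk1 (-2.10) and Arpp19 (-1.92) also fell by more than the median gene on the ERCC scale, but neither was called with the factor divided out (-0.41 and -0.23) or after median scaling (-0.06 and 0.12).

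The log2 changes of Mos (-1.51), Mastl (-1.22), Fbxo43 (-0.76) and Map2k1 (-0.61) were called lower on the ERCC scale and turned sign on both others. Map2k1 was higher by 1.13 and 1.47, Fbxo43 by 0.94 and 1.27, and Mastl by 0.48 and 0.83 with the factor divided out and after median scaling, all called. Mos was higher by 0.24 (not called) and 0.59 (called). Before ERCC scaling, Map2k1 had 97.0 and 105 FPKM in WT GV and 235 and 210 FPKM in WT MII libraries. As a share of polyadenylated RNA it thus rose, while its spike-in estimate per oocyte fell.

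In Zar1/2-null oocytes, 4 of 8 members were lower in ovulated than in GV oocytes (background 68.7%) and 0 were higher (0.209%). The 4 were Arpp19 (-1.95), Ensa (-1.75), Plk1 (-1.67) and Mastl (-0.96). Mos, Map2k1, Mapk3 and Fbxo43 had changes of -0.09, 0.05, 0.07 and -0.17 with 95% intervals that held 0, and their libraries overlapped between the stages. Mapk3 had 83.3 and 140 FPKM in null GV and 112 and 115 FPKM in null MII libraries. With the ERCC factor divided out, Mos, Map2k1, Mapk3 and Fbxo43 were called higher, by 0.97, 1.10, 1.13 and 0.87. The median gene changed by -0.28 on that scale.

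**Figure D3:**
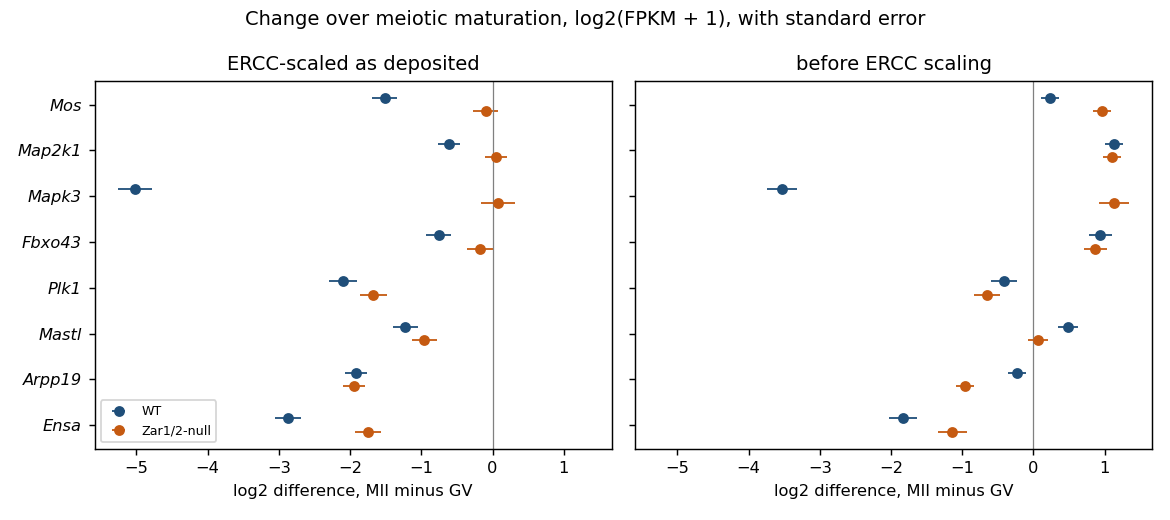
Change from GV to ovulated oocytes of the 8 tested members on the log2(FPKM + 1) scale, WT in blue and Zar1/2-null in orange, as deposited (left) and with the ERCC factor divided out (right). Bars show the standard error from limma (2 libraries a group). Mapk3 is at -5.02 in WT and 0.07 in null oocytes on the left and at -3.53 and 1.13 on the right.

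Whether maturation differed between the genotypes was tested by the interaction, the null change minus the WT change. It was called higher for 4 of 8 members (background 33.9%) and lower for 0 (0.643%). The interaction was 5.10 for Mapk3 (standard error 0.33), 1.42 for Mos (standard error 0.25), 1.12 for Ensa (standard error 0.26) and 0.66 for Map2k1 (standard error 0.21), against a median of 0.48 for all genes. The adjusted p-values by limma with Benjamini-Hochberg adjustment were 8.37e-07, 0.00137, 0.00766 and 0.0351. Mapk3 (4.66 and 4.54) and Mos (0.73 and 0.65) were called on both other scales, Ensa (0.70 and 0.57) and Map2k1 (-0.02 and -0.10) on neither. Map2k1 was called in 2 of the 8 fits without 1 library, the other 3 in all 8. Fbxo43 (0.58), Plk1 (0.43) and Mastl (0.27) were not called.

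Arpp19 changed by -1.92 in WT and -1.95 in null oocytes on the ERCC scale, with an interaction of -0.03 (95% interval -0.52 to 0.45, adjusted p = 0.915 by limma). With the factor divided out the interaction was -0.73 and after median scaling -0.80, both called (adjusted p = 0.0140 and 0.0106, limma with Benjamini-Hochberg adjustment). On those scales it was the 1 member with a negative interaction that was called.

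Growth was examined by setting GV against growing oocytes. On the ERCC scale 5 of 8 members were lower at the GV stage in WT (background 28.7%) and 0 higher (2.77%), with log2 changes of -1.05 for Mapk3, -0.69 for Ensa, -0.61 for Plk1, -0.58 for Fbxo43 and -0.57 for Mastl. In the null, 7 of 8 were lower (background 55.9%) and 0 higher (4.76%), the exception being Arpp19 (-0.07), which was called higher on both other scales (0.48 and 0.54). Mapk3 (-1.21) and Ensa (-1.23) had the largest changes there and were also called with the factor divided out (-0.66 and -0.74) and after median scaling (-0.59 and -0.64). In WT, 0 of the 5 calls held on either of those scales, and each of them was lost in 2 or more of the 4 fits without 1 library. In the null, Fbxo43 and Mastl lost the call in 3 of 4 such fits and Map2k1 and Plk1 in 2.

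Mos had the only growth change that was called as differing between genotypes (1 of 8 members lower, background 11.3%, and 0 higher, background 2.58%, in a comparison added after the data were seen). It went from 570 and 607 to 619 and 509 FPKM in WT and from 743 and 739 to 341 and 457 FPKM in null libraries. The interaction was -0.84 (standard error 0.25, adjusted p = 0.0467, limma with Benjamini-Hochberg adjustment). The value was -0.67 with the factor divided out (adjusted p = 0.0519 by limma), and the call was lost in 6 of the 8 fits without 1 library, with values of -0.63 to -1.05.

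Ratios of a pair of genes within a library do not depend on its ERCC factor. Mos to Mapk3 was 2.13 and 1.68 in WT growing, 2.78 and 3.13 in null growing, 3.95 and 3.55 in WT GV and 4.09 and 3.28 in null GV libraries. In ovulated oocytes it was 65.3 and 44.6 in WT and 3.47 and 3.06 in null libraries. WT ovulated libraries thus stood apart from the other 10, and the null ovulated ratios lay within the range of the earlier stages.

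Mos to Map2k1 was 3.90 and 3.91 in WT ovulated libraries, the lowest of the 6 groups, and 8.22 and 9.33 in null growing libraries, the highest. The ratio of the Greatwall substrates, Arpp19 to Ensa, was 3.03 and 2.41 in WT growing, 4.49 and 4.16 in WT GV and 18.5 and 12.9 in WT MII libraries, and 3.20 and 2.51, then 8.91 and 5.26, then 8.60 and 8.34 in the null. The null libraries thus had more Arpp19 per Ensa than WT in GV oocytes and less in ovulated ones, and null GV and null ovulated libraries overlapped. The ovulated ratios rest on Ensa values near 1 FPKM (0.771 and 1.11 FPKM in WT, 1.46 and 1.24 FPKM in null), whose genotype difference was not called. Fbxo43 to Plk1 lay between 0.341 and 0.447 in the 8 libraries before ovulation and between 0.988 and 1.27 in the 4 after it. Mastl to Arpp19 was 1.22 and 1.24 in WT growing, 1.24 and 1.18 in null growing and 0.828 to 0.968 in GV libraries. It was 1.24 and 1.58 in WT ovulated and 1.70 and 2.05 in null ovulated libraries, so WT ovulated replicate 1 lay within the growing range.

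**Figure D4:**
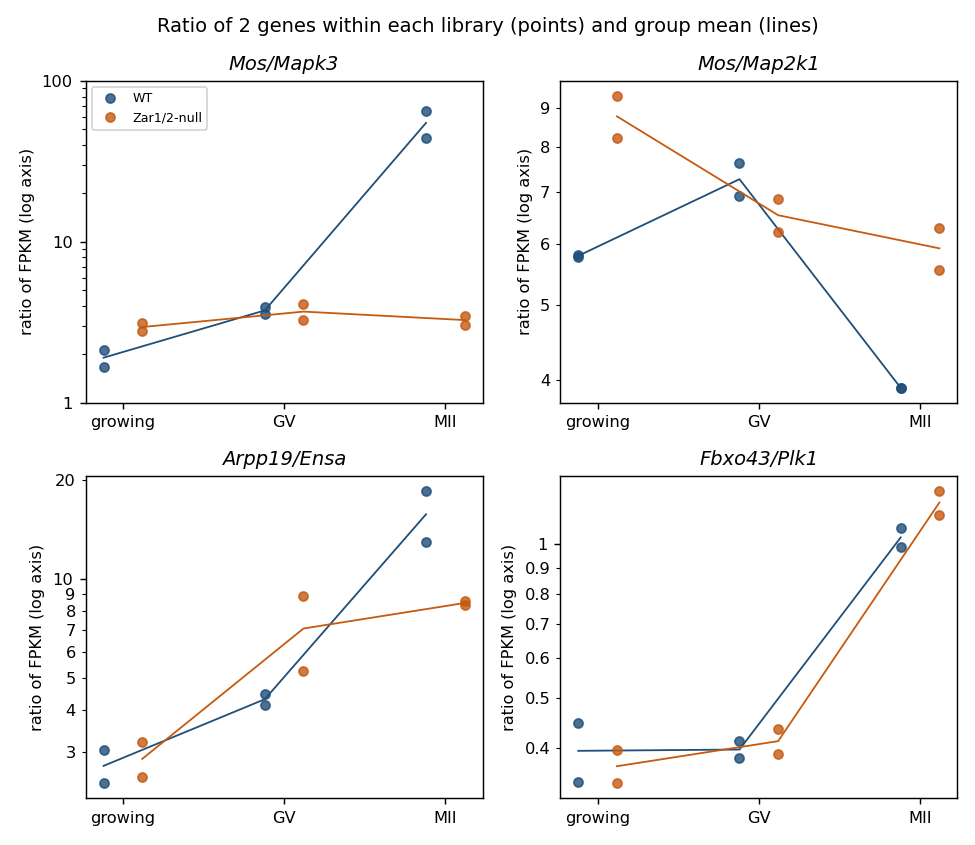
Ratio of FPKM between 2 genes in the same library, on log axes whose ranges differ between panels, by stage. Points are libraries, lines join group means, WT in blue and Zar1/2-null in orange. Mos/Mapk3 ends at 65.3 and 44.6 in WT and at 3.47 and 3.06 in null ovulated oocytes, while Fbxo43/Plk1 rises in both genotypes.

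Profiles over the 6 group means of log2(FPKM + 1), each centred on its own mean, were compared by their root-mean-square difference among 4325 genes whose mean over the libraries reached 10 FPKM. Closest to Mos were Stoml2 (0.0995), Lamb1 (0.102) and Gtl3 (0.110). Closest to Fbxo43 were Xrn2 (0.0547), Tbc1d15 (0.0591) and Agk (0.0595), and closest to Mastl Cul4b (0.0573), Sgol1 (0.0656) and Meis2 (0.0843). Mapk3 differed from these members by 1.46 (Mos), 1.65 (Fbxo43) and 1.55 (Mastl). The 6 points share the ERCC factors of the same 12 libraries.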

How the data were processed

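RNA of 10 oocytes per library was sequenced from 2 libraries in each of 6 groups, assigned from the labels. Reads cut to 50 bp were aligned by the authors to mm9 (TopHat2 2.1.1) and turned into FPKM over UCSC gene models (Cufflinks 2.2.1). The authors deposited FPKM multiplied by a factor from the ERCC spike-in, as 1 table of 23230 genes. Dividing by the recovered factors returned 100% of values to 6 digits. Without counts the depth behind a value is unknown, and 30.9% to 38.6% of genes in a library are listed at 0.

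Genes with 1 FPKM or more in 1 library or more (11502) entered limma 3.58.1 (R 4.3.3) on log2(FPKM + 1), with 1 term per group over 12 libraries, eBayes with an intensity trend and Benjamini-Hochberg adjustment at 0.05. An exact permutation test of 2 against 2 libraries cannot give a p below 0.333. In data simulated for the MII comparison (11502 genes), limma recovered 76% of 100 genes changed 2-fold and 100% of 100 changed 4-fold, with 5 false calls. The changed genes were drawn only from those fitted at 10 FPKM or more in WT MII oocytes, with normal noise of the spread that limma fitted. Recovery at lower WT MII levels, such as those of Mapk3 (3.67 FPKM) and Ensa (0.942 FPKM), was not simulated. For folds, means under 1 FPKM were set to 1. Alternatives were no ERCC scaling, median scaling (5011 genes), a pseudocount of 0.1 FPKM, no filter, a mean of at least 5 FPKM, no trend, a replicate block, only the groups compared, and each library left out. A crossed block for the GV comparison and the growth interaction were chosen after seeing the data. Genome sequence and transcripts came from mm9 with GENCODE annotation, from the longest coding transcript of each gene. The members and gene lists were chosen with earlier results of these data known. Named genes are the 9 members, other pathway genes that passed the test in a genotype comparison or are needed to describe a member, and for Mos, Fbxo43 and Mastl the 3 closest profiles. A few genes of the cascade are not reported here, and its list and counts leave them out.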

Additional observations from a re-analysis of the deposited data

Results flagged for a closer look

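In 4 members the change from GV to ovulated oocytes differed between genotypes by the interaction test in limma (Benjamini-Hochberg adjustment over all tested genes). The null change exceeded the WT change by 5.10 for Mapk3, 1.42 for Mos, 1.12 for Ensa and 0.66 for Map2k1 on the log2(FPKM + 1) scale. For Mos the change from growing to GV oocytes also differed, by -0.84. Only the Mapk3 and Mos differences over maturation were called on all 3 scales. The cause was not tested for any of them.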

How the results depend on the processing

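The call that Mapk3 and Mos were higher in null ovulated oocytes held under every alternative tried, as did the interaction of both over maturation. The scaling changed most other counts. The share of all genes called on the other scales is not given, so the counts below cannot be set against a background. For the members called between genotypes, dividing out the ERCC factor and median scaling each gave 1 higher in growing oocytes (Mos, 0 as deposited), 0 lower in GV oocytes (2) and 1 lower in ovulated oocytes (Arpp19, 0). Over WT maturation they gave 3 and 4 higher (0) and 2 and 2 lower (8), and over null maturation 4 and 5 higher (0), with 2 lower after median scaling (4). The maturation interaction had 2 and 2 higher (4) and 1 and 1 lower (0). WT growth had 0 and 0 lower (5), null growth 1 and 1 higher (0) and 2 and 2 lower (7), and the growth interaction 0 and 0 lower (1). Without a filter on low values 1 member was lower in growing oocytes. With only the groups compared there was 1 lower in GV oocytes, 3 in WT growth and 4 in null growth. The growth interaction was 0 with a pseudocount of 0.1 FPKM, without a filter, with a mean of at least 5 FPKM and with only the groups compared. Leaving out 1 library gave 1 to 5 lower in GV oocytes, 0 to 3 in WT growth, 3 to 6 in null growth and 0 to 2 for the growth interaction.

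Several log2 differences turned sign, among them called ones (5 members over WT maturation, Mastl over null maturation, Mos in GV oocytes and the Map2k1 interaction). With the ERCC factor divided out and after median scaling, in that order, the null minus WT difference in growing oocytes became 0.0228 and 0.0263 for Map2k1, 0.0261 and 0.0291 for Fbxo43, 0.117 and 0.119 for Plk1, 0.0126 and 0.0161 for Mastl, and 0.0314 and 0.0345 for Arpp19. In GV oocytes it became 0.1 and 0.186 for Map2k1, 0.289 and 0.366 for Fbxo43, 0.240 and 0.324 for Plk1, 0.256 and 0.339 for Mastl, and 0.175 and 0.259 for Arpp19, and after median scaling alone 0.0349 for Mos and 0.0662 for Mapk3. In ovulated oocytes it became -0.157 and -0.142 for Mastl, and -0.00808 for Plk1 with the factor divided out. The WT change over maturation became 0.237 and 0.594 for Mos, 1.13 and 1.47 for Map2k1, 0.941 and 1.27 for Fbxo43, 0.483 and 0.827 for Mastl, and after median scaling 0.123 for Arpp19. The null change became 0.965 and 1.25 for Mos, 0.866 and 1.13 for Fbxo43, and 0.0704 and 0.347 for Mastl. The maturation interaction of Map2k1 became -0.0228 and -0.0954, and the WT growth change of Mos 0.321 and 0.305. Without 1 library, Plk1 ranged from -0.357 to 0.0214 in growing and from -0.426 to 0.0117 in GV oocytes, Fbxo43 from -0.439 to 0.139 in GV oocytes and Mastl from -0.0940 to 0.249 in ovulated oocytes. Over null maturation the range was -0.306 to 0.116 for Mos, -0.0904 to 0.186 for Map2k1, -0.296 to 0.441 for Mapk3 and -0.462 to 0.116 for Fbxo43. It was -0.167 to 0.0969 for the Arpp19 interaction over maturation and -0.209 to 0.0736 for WT growth of Mos.

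The replicate numbers were not shown to pair the libraries: over 15 pairs of groups, the deviations of equal numbers correlated between -0.117 and 0.163, with 4 over 0.1. A scale shared by all genes of a library would hardly show in such a correlation. Because both WT growing libraries had a factor of 1, the scaling itself may tie libraries of equal number, which was not tested. With the number as a replicate block, 2 members were lower in GV and 2 higher in ovulated oocytes, as without it, and every other count of members called was also as without it. With the numbers of the null GV libraries crossed and only the GV libraries fitted, 1 member was lower in GV oocytes. Fitting only the groups compared without a block also gave 1, so an effect of the crossing cannot be read from this count. Values near 1 FPKM, such as Ensa in ovulated oocytes, are limited by depth that the files do not give. Beyond the scaling and the number of libraries fitted, the cause of these shifts was not tested.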
